A study of Mus musculus with 12 samples.

Results

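The genes described here encode the proteins of the cytosolic ribosome, measured as mRNA in the left ventricle of adult mice. They were taken by symbol: every gene listed as Rpl or Rps followed by a digit, with Rplp0, Rplp1, Rplp2 and Rpsa, and without the ribosomal S6 kinases (10 genes starting with Rps6k) and the 2 listed pseudogenes marked -ps. The rule used no measured value and gave 86 of the 17052 genes of the table. Of these, 77 are core ribosomal proteins (46 of the large subunit, with the 3 proteins of its acidic stalk, and 31 of the small subunit), and 8 are paralogs or additional gene copies. The remaining symbol, Rps19bp1, names a protein that binds RPS19 and is not itself a part of the ribosome.

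Each ribosome holds a copy of nearly every core protein in a small subunit, which decodes the mRNA, and a large subunit, which joins the amino acids. In mammals most of these mRNAs start with a C followed by a run of pyrimidines, the 5′ terminal oligopyrimidine (TOP) motif, through which mTOR signalling mainly adjusts their translation. Growth of the heart under pressure load adds protein to existing cardiomyocytes and therefore requires ribosomes, and striated muscle also makes RPL3L, a muscle form of the large-subunit protein RPL3.

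The study crossed pressure overload with the drug pimobendan, a calcium sensitizer and phosphodiesterase inhibitor used in heart failure. All 12 mice were C57BL/6, underwent their operation when 8 weeks old and gave tissue when 12 weeks old, and each library came from the left ventricle of 1 mouse. The TAC+pimobendan mice (n = 3) had transverse aortic constriction, in which a clip narrows the aorta and raises the pressure the ventricle works against, and received oral pimobendan at 1 mg/kg per day for 4 weeks. The TAC+control mice (n = 3) had the constriction without the drug. The Sham+pimobendan mice (n = 3) had the operation without the clip and received the same course of drug, and the Sham+control mice (n = 3) had the sham operation without the drug. The labels give neither the sex of the animals nor what, if anything, the control mice were given in place of the drug, and the whole ventricle was taken, so that fewer cells of a type and less RNA per cell cannot be told apart.

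The letters around the annotated starts show a feature that some of these genes have at the annotated first base and most do not. Each window below runs from 10 bases before to 20 bases from the transcription start in RefSeq's GRCm38.p6 annotation, read 5′ to 3′ on the gene's strand. Capitals mark the longest run of a C followed by at least 4 C or T. The first 4 windows have that run at the annotated first base, and the other 6 are examples of members described below that do not have it there. Rpl37rt, the most negative member in TAC+pimobendan against Sham+pimobendan, also lacks it and is not shown. Rpl28, among the first 4, was one of the most negative members in that comparison. The choice of windows does not show that members without the run differed more.
Rps6 (chr4:86857348-86857377, minus strand): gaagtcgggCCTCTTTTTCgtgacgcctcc
Rps27 (chr3:90213629-90213658, minus strand): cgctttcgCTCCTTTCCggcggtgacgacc
Rplp2 (chr7:141447641-141447670, plus strand): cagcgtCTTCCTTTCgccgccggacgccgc
Rpl28 (chr7:4792955-4792984, plus strand): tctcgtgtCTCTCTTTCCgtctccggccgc
Rps24 (chr14:24490668-24490697, plus strand): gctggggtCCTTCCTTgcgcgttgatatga
Rps2 (chr17:24720053-24720082, plus strand): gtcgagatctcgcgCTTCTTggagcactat
Rpl3l (chr17:24727816-24727845, plus strand): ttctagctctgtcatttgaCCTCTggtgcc
Rpl36al (chr12:69184048-69184077, minus strand): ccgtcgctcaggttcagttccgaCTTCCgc
Rpl4 (chr9:64173377-64173406, plus strand): tttcctgtgggagcagccgggtagagagga
Rpl5 (chr5:107900518-107900547, plus strand): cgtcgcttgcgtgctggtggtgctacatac
Of the 86 members, 66 had a start in the RefSeq table, and 14 of them (21.2%) carried a C followed by at least 4 pyrimidines at an annotated first base, against 274 of 9129 genes tested (3.00%). Anywhere in the 30 bases, on the gene's strand, such a run stood in 43 of the 66 members (65.2%) and in 42.3% of the genes tested. An annotated start can lie a few bases from the start in use: in Rps24 the run spans the annotated start, but the first annotated base is a T.

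The values are FPKM (fragments per kilobase of transcript, scaled also to library size), and a member's levels can be compared with another's because they are scaled to transcript length. Over the 12 libraries the summed FPKM lay between 593203 and 643478, and 10809 to 11292 genes had at least 1 FPKM. The sums were 593203 to 608040 in TAC+pimobendan and 623408 to 643478 in TAC+control, without overlap. The table as used here holds no read counts, and without sequencing depth a counting error cannot be worked out for any value. The cardiomyocyte markers summed to 51013 to 57316 FPKM in TAC+pimobendan, 58462 to 63009 in TAC+control, 50237 to 56475 in Sham+pimobendan and 52912 to 56419 FPKM in Sham+control. All 3 skeletal muscle markers and 4 of 5 T and B cell markers were under 1 FPKM everywhere. Erythroid markers (7 genes, 1 of them under 1 FPKM everywhere) summed to 1143 to 2282 FPKM in TAC+pimobendan, 4200 to 6703 in TAC+control, 452 to 1907 in Sham+pimobendan and 1553 to 3064 FPKM in Sham+control. All 7 macrophage markers were on the positive side in TAC+pimobendan against TAC+control, with sums of 298 to 395 FPKM in TAC+pimobendan and 277 to 293 FPKM in TAC+control that did not overlap, and none was called. Fibroblast markers summed to 415 to 482 FPKM in TAC+pimobendan and 328 to 416 FPKM in TAC+control, and endothelial markers to 303 to 333 FPKM in TAC+pimobendan and 271 to 334 FPKM in TAC+control. In each of these 2 lists 4 markers were positive and 2 negative in TAC+pimobendan against TAC+control. Most of the fibroblast sum was Dcn, which averaged 345 FPKM in TAC+pimobendan and 268 FPKM in TAC+control. All 6 markers of smooth muscle and pericytes were negative in TAC+control against Sham+control, with sums of 182 to 217 FPKM in TAC+control and 192 to 286 FPKM in Sham+control, and none was called there. In TAC+pimobendan against TAC+control, 1 of 6 tested erythroid markers was called as lower (16.7%, background 3.27%) and all 6 were negative. Of 7 cardiomyocyte markers, 1 was called as higher and 1 as lower there (28.6%). In TAC+pimobendan against Sham+pimobendan, 1 cardiomyocyte marker was called as higher (14.3%, background 4.89%). There 1 endothelial marker and 1 of smooth muscle and pericytes were called as lower (16.7% of each list). The part of these markers in the members' differences was not tested. The libraries also differed in how a gene's level moved with the GC content of its transcript, as set out below with the members' values.

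Cytosolic ribosomal protein mRNAs were among the most abundant of the left ventricle. Their median level over the 12 libraries was 416 FPKM, against 8.83 FPKM over the 11415 genes tested, and 77 members were in the top 10% of those genes. A gene was tested if it had at least 1 FPKM in at least 3 libraries, which 84 members met. The other two, the paralogs Rpl32l and Rpl39l, averaged 0.0458 and 0.136 FPKM and never passed 0.20 and 0.41 FPKM. The 86 genes lie on 19 chromosomes.

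The large-subunit core genes had a median level of 434 FPKM. Rpl23a, whose protein sits at the exit of the peptide tunnel, led them at 1105 FPKM, and Rpl41, which encodes a very short basic peptide, averaged 951 FPKM. Rpl38 averaged 771 FPKM and Rpl10, which completes the large subunit late in its assembly, 683 FPKM. At the other end, Rpl3 averaged 147 FPKM and Rpl22 74.9 FPKM.

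The small-subunit core genes had a median of 456 FPKM. Rps2 was the most abundant member of all at 1232 FPKM, followed within the small subunit by Rps27 at 1011 FPKM and Rps15 at 993 FPKM. Rpsa, known also as the laminin receptor, averaged 456 FPKM, the X-linked Rps4x 522 FPKM, and Rps27a, made as a fusion to ubiquitin, 259.5 FPKM. The stalk proteins, which recruit the translation factors that hydrolyse GTP, averaged 961 FPKM for Rplp1, 837 FPKM for Rplp0 and 533 FPKM for Rplp2.

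Most core proteins enter the ribosome in equal numbers, but their mRNA levels spread widely. Of the 77 core genes, 22 had at least 600 FPKM, 26 had 400 to 600, 19 had 200 to 400, 6 had 100 to 200, and 4 were under 100 FPKM. The 4 lowest were Rpl22 and the small-subunit genes Rps20 at 37.1, Rps15a at 30.9 and Rps6 at 12.2 FPKM, while Rps19bp1 averaged 12.3 FPKM. Rps6 encodes the substrate of the S6 kinases and is a component of every small subunit. The transcripts matched to Rps15a and Rps20 were 5179 and 3706 bases long, against a median of 814.5 bases over the tested members, and that to Rps6 was 878 bases long. Ribosomal protein genes have many near-identical processed pseudogenes, and how shared reads were divided is not given in the sources used here, so levels of single members are uncertain. Whether transcript length or shared reads set the low values was not tested.

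**Figure D1:**
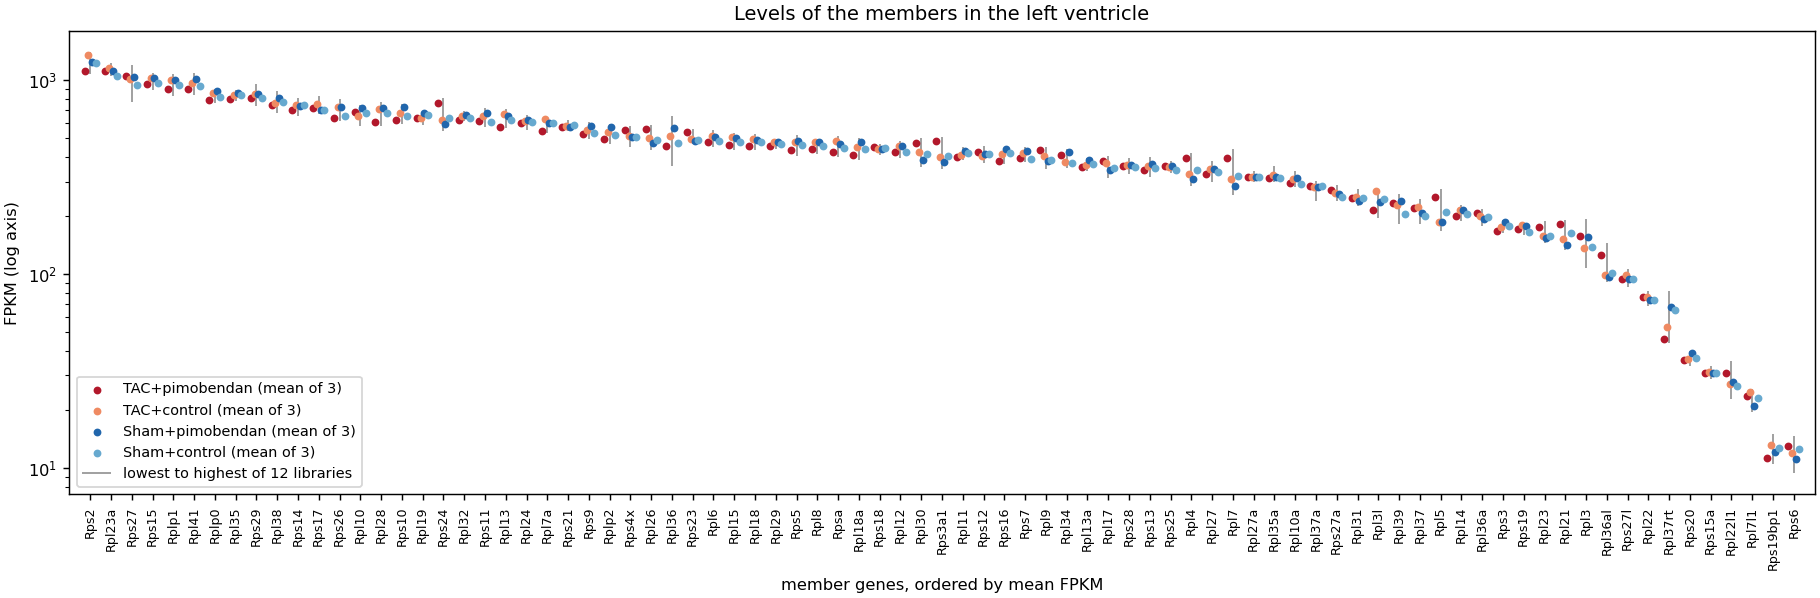
Mean FPKM of 83 of the 84 tested members (log axis, members ordered by mean) in the 4 groups of 3 mice, with a line from the lowest to the highest of the 12 libraries. The 4 means of nearly every member lie close together relative to the range from 1232 FPKM (Rps2) to 12.2 FPKM (Rps6).

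Levels of the core genes varied little from mouse to mouse. The highest library exceeded the lowest by a factor of 1.12 to 1.81 (median 1.23), and this factor was under 1.5 for 71 of the 77. Rpl29 (CV 2.99% over the 12 libraries) and Rpl32 (3.14%) were the steadiest. The least steady tested members were Rpl37rt (21.1%), Rpl7 (17.9%), Rpl36al (17.3%), Rpl5 (17.1%), Rpl3 (15.7%) and Rpl22l1 (15.2%), of which 3 are paralogs or copies. Within groups, the median residual SD of the 75 members with at least 100 FPKM was 0.087 on the log2 scale, against 0.114 for the 712 other genes at that level.

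The members together took 6.15%, 5.96% and 6.23% of the summed FPKM in the TAC+pimobendan mice, 5.76%, 6.23% and 5.95% in TAC+control, 6.22%, 6.07% and 5.97% in Sham+pimobendan, and 6.05%, 6.04% and 5.79% in Sham+control. All 4 ranges overlapped. The large-subunit core genes summed to 1.34 to 1.39 times the small-subunit core genes in every library. The TAC+control replicate 2 library stood highest for the members as a whole: its median member was 0.107 log2 units above that member's own mean, against −0.051 to 0.044 in the other 11 libraries.

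Pressure overload without the drug moved no member past the test. In TAC+control against Sham+control, 0 of 84 members were called by limma at an adjusted p under 0.05 (background 0% of the 11415 genes tested), and 0 had an unadjusted p under 0.05 (background 8.33%, with 1.5% higher and 6.83% lower). The smallest adjusted p was 0.599, for Rpl23a. Most members sat on the positive side: 60 had a positive log2 fold change and 24 a negative one, with a median of 0.043, against −0.057 over all genes tested. Compared with that all-gene median, 80 of 84 members lay above it, by a median of 0.0997. The split was 44 positive and 40 negative without TAC+control replicate 2, with a median of 0.0051, and 43 and 41 with TPM, 45 and 39 after quantile normalization and 81 and 3 after median-ratio scaling. The position relative to other genes depended on the scaling too, as it was −0.0036 after quantile normalization and 0.035 after the GC and length trend of each library was removed.

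Rps2, a small-subunit protein near the mRNA entry site, had 1391, 1353 and 1318 FPKM in TAC+control and 1155, 1262 and 1253 FPKM in Sham+control. All 3 TAC+control mice lay above all 3 Sham+control mice, with a log2 fold change of 0.15 ± 0.07 (SE; limma adjusted p 0.620). Rpl23a had 1099, 1221 and 1133 FPKM in TAC+control against 1050.1, 1049 and 1054 FPKM in Sham+control, again without overlap (0.13 ± 0.06).

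The groups failed to overlap upward for 8 members (9.52% of those tested, background 3%): Rps2, Rpl23a, Rpl7a, Rpl8, Rpl37, Rps19 and the paralogs Rpl3l and Rpl7l1. None was lower without overlap (background 9.74%). Rpl37 (0.15 ± 0.08) and Rpl39 (0.15 ± 0.09) were the other members with the most positive fold changes. The most negative were Rpl37rt (−0.28 ± 0.15), Rpl5 (−0.16 ± 0.13) and Rpl21 (−0.09 ± 0.10), all with adjusted p over that of Rps2. Rpl21 turned to 0.0080 without Sham+control replicate 1. The 95% confidence intervals of 83 of the 84 members lay within 0.5 log2 units of 0, with a median half-width of 0.170.

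Pimobendan in the loaded ventricle left members on both sides of 0 whose tests came close to the threshold without passing it. Among 84 members, TAC+pimobendan against TAC+control gave 0 called by limma at an adjusted p under 0.05 (background 3.27%, with 360 genes higher and 13 lower), and the smallest adjusted p was 0.0508, for Rpl7a. At an unadjusted p under 0.05, 7 members were higher (8.33%, background 22.3%) and 8 were lower (9.52%, background 4.34%). The fold change was positive for 28 members and negative for 56, with a median of −0.053, against 0.095 over all genes tested, so that 67 of 84 members lay below the all-gene median. Without TAC+pimobendan replicate 1 the same test called 6 members, when 10.4% of all genes were called: Rpl5, Rpl7 and Rpl36al as higher and Rps2, Rpl7a and Rpl3l as lower. Without TAC+control replicate 2 the split was 40 positive and 44 negative, with a median of −0.011. The labels do not say that mice of the same replicate number belong together. The number was tried as a block, and the calls depended on how it was fitted. The form limited to the TAC groups was chosen after seeing the data. With the number as a block in all 4 groups, 1 gene of the table (0.00876%) and 0 members were called, with a smallest member's adjusted p of 0.0897. With the block in the TAC groups only, 694 genes (6.08%) and 1 member, Rpl5 as higher (limma adjusted p 0.0488), were called. With TPM in place of FPKM and no block, 2 members were called when 9.69% of all genes were. These were Rpl5 as higher and Rps2 as lower. With TPM the split was 51 positive and 33 negative, with a members' median of 0.020 and an all-gene median of 0.171. After quantile normalization it was 49 positive and 35 negative, with a members' median of 0.033. The sign of the members' median thus depended on the scaling.

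Rpl5, which with RPL11 and the 5S rRNA forms the particle that restrains MDM2, had the most positive fold change. It had 213, 264 and 273 FPKM in TAC+pimobendan and 167, 209 and 182 FPKM in TAC+control. The TAC+pimobendan mice were all above the TAC+control mice, though the lowest of them exceeded the highest TAC+control mouse by a few FPKM only (log2 fold change 0.42 ± 0.13, limma adjusted p 0.0665).

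Rpl7, another large-subunit gene, had 326, 439 and 419 FPKM in TAC+pimobendan, against 285, 356 and 284 FPKM in TAC+control. Replicate 1 of TAC+pimobendan lay inside the TAC+control range and the other 2 lay above it (0.35 ± 0.14, adjusted p 0.134). Rps24 had 691, 787 and 812 FPKM in TAC+pimobendan and 621, 677 and 568 FPKM in TAC+control, without overlap (0.29 ± 0.11, adjusted p 0.105). Rpl4 had 366, 409.6 and 421 FPKM in TAC+pimobendan and 305, 367 and 314 FPKM in TAC+control. Its groups overlapped at their edge (0.28 ± 0.10, adjusted p 0.111), and Rps23 was the only further member without overlap upward, making 3 (3.57%, background 23.3%).

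On the other side, Rps2 had 1190.2, 1078 and 1079 FPKM in TAC+pimobendan, against 1391, 1353 and 1318 FPKM in TAC+control. Every TAC+pimobendan value was also under the Sham+control median, and the difference from TAC+control was −0.28 ± 0.07 (limma adjusted p 0.0519). Rpl7a had 554, 531 and 547 FPKM in TAC+pimobendan and 631, 639 and 629 FPKM in TAC+control, a narrow pair of ranges with a wide gap (−0.22 ± 0.06, adjusted p 0.0508). Rpl13 had 592, 567 and 563 FPKM in TAC+pimobendan against 632, 711 and 662 FPKM in TAC+control (−0.22 ± 0.07, adjusted p 0.0840). In all, 10 members were lower without overlap (11.9%, background 6.64%): these 3 with Rpl28, Rpl41, Rplp1, Rplp2, Rps26, Rpsa and the paralog Rpl3l.

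**Figure D2:**
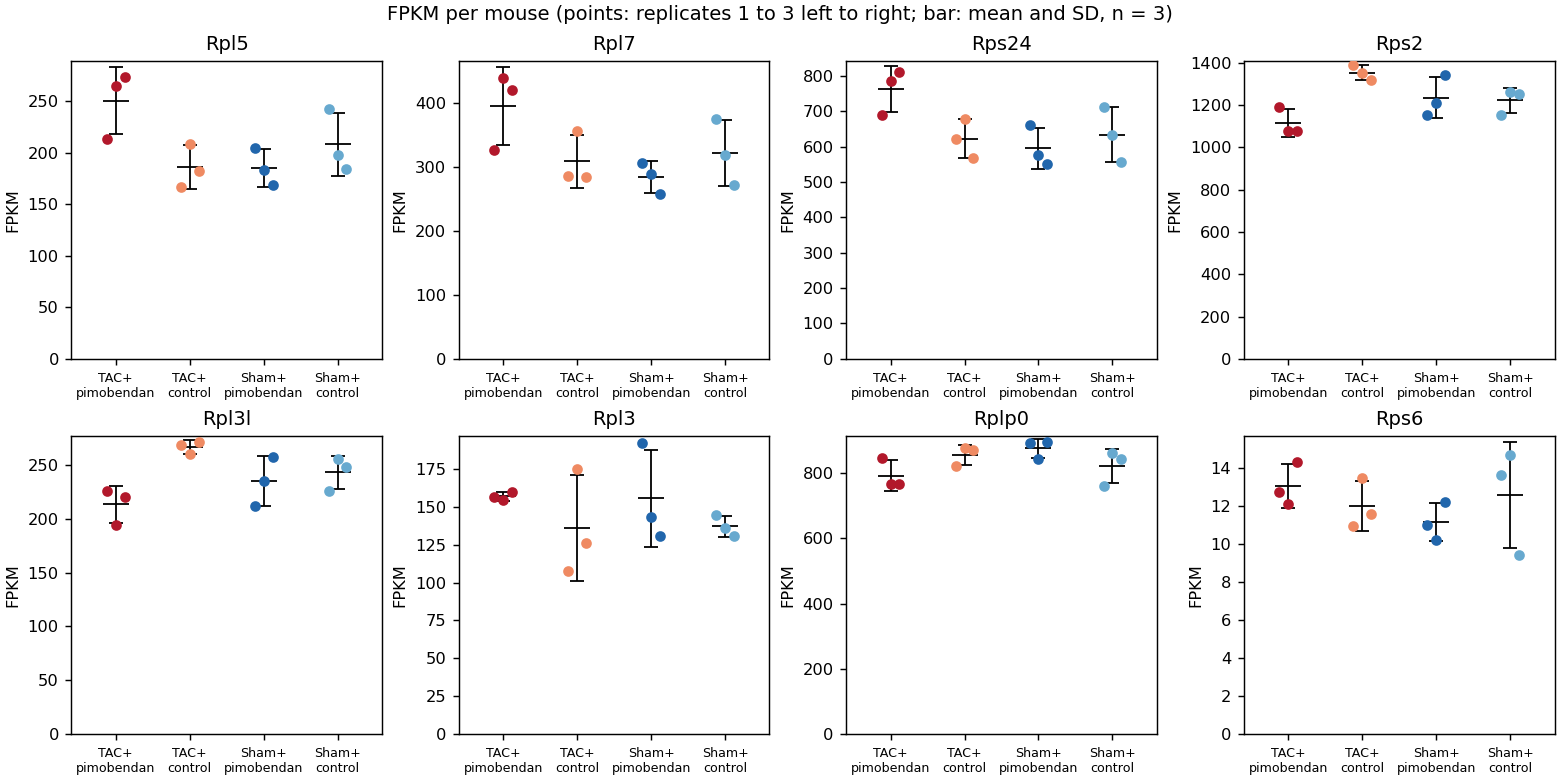
FPKM of 8 members in each mouse (points, replicates 1 to 3 from left to right) with the mean and SD of each group of 3, on linear axes that start at 0. By group mean, Rpl5 and Rps24 are highest in TAC+pimobendan and Rps2 and Rpl3l in TAC+control, and for Rplp0 and Rps6 the groups overlap.

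The members' fold changes tended to fall as the GC content of their transcripts rose. Across the 84 members the log2 fold change in TAC+pimobendan against TAC+control had a Spearman correlation of −0.571 with GC content, and across the 11342 tested genes with a value it was −0.503. Both describe genes measured in the same libraries, and genes are not independent replicates. The 30 members under 50% GC had a median fold change of 0.029, with 17 positive, whereas the 54 members at or above 50% had −0.078, with 11 positive. In TAC+control against Sham+control the correlation with GC content was 0.272 across the members and 0.101 across all genes, and the medians of the same sets of members were 0.022 and 0.050. Transcript length had next to no relation with the members' fold changes in TAC+pimobendan against TAC+control (correlation 0.0010). Rpl5 and Rpl7 are among the GC-poorest members, at 42.7% and 45.8%, and Rps2 and Rpl13 lie at 56.5% and 57.1%.

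The relation with GC content differed between groups and between libraries of a group. The correlation between a member's deviation from its own mean and its GC content was −0.189, −0.574 and −0.540 in the 3 TAC+pimobendan libraries, 0.322, −0.045 and 0.342 in TAC+control, 0.173, 0.427 and 0.528 in Sham+pimobendan, and −0.446, 0.336 and 0.361 in Sham+control. TAC+pimobendan was the only group with 3 negative values, but Sham+control replicate 1 had a value of the same size, so the trend also differed between mice of the same group. Across all tested genes with a GC value the correlations were −0.209, −0.520 and −0.541 in TAC+pimobendan and 0.126, 0.025 and 0.290 in TAC+control. They were 0.144, 0.360 and 0.547 in Sham+pimobendan, and −0.364, 0.090 and 0.472 in Sham+control. The trend was thus not particular to the members. Whether the drug, the operation or the library sets the trend was not tested. Sham+control replicate 1 was also the highest Sham+control mouse for Rpl5, Rpl7, Rpl4 and Rps24, at 242, 375, 391 and 712 FPKM. With the GC and length trend of each library removed, the members' median in TAC+pimobendan against TAC+control was −0.044 and that of all genes −0.027. The distance from the all-gene median then measured −0.017 in place of −0.149, and no gene of the table was called. After quantile normalization the distance was 0.054, on the other side of 0.

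**Figure D3:**
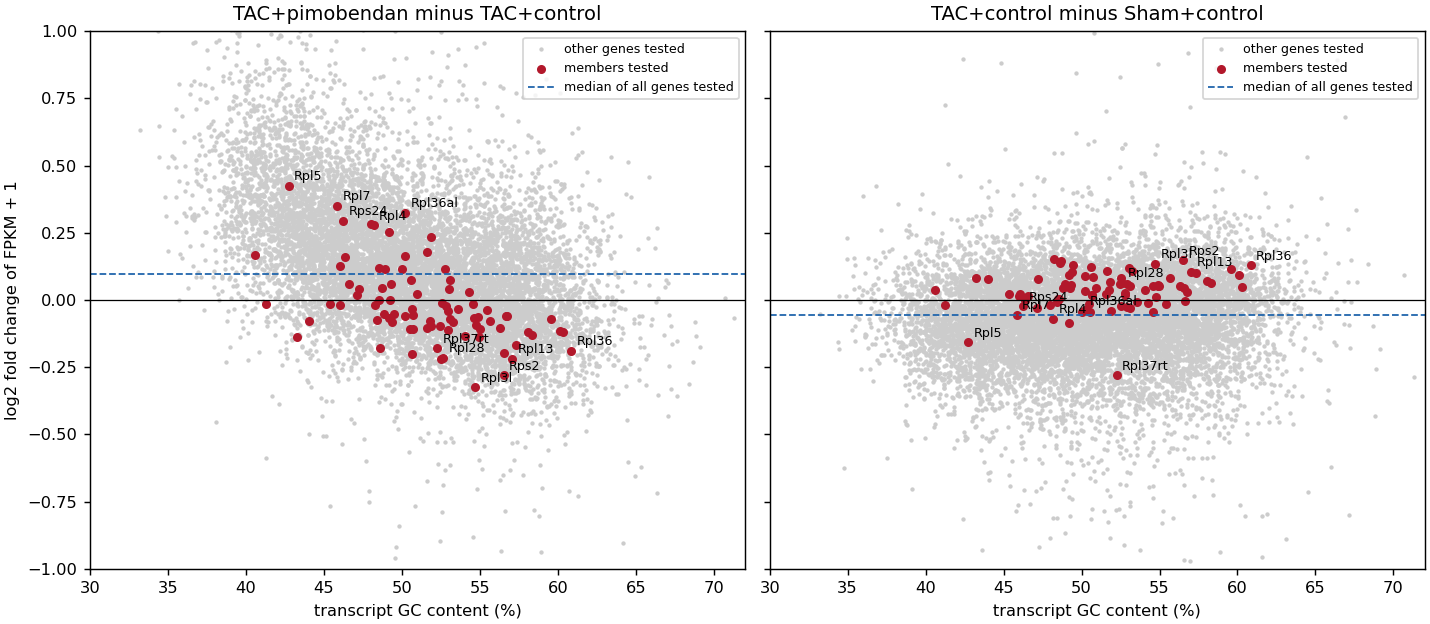
Log2 fold change of FPKM + 1 against transcript GC content (%) for the 84 tested members (red) and the other tested genes (grey), in TAC+pimobendan minus TAC+control (left) and TAC+control minus Sham+control (right); 55 genes on the left and 44 on the right, none of them a member, lie beyond the fold change axis, and 2 beyond the GC axis. On the left both clouds slope downward with GC, with Rpl5 and Rpl7 at the upper left and Rps2 and Rpl13 at the lower right, and on the right 80 of 84 members lie above the dashed all-gene median, with a correlation with GC of 0.272.

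**Figure D4:**
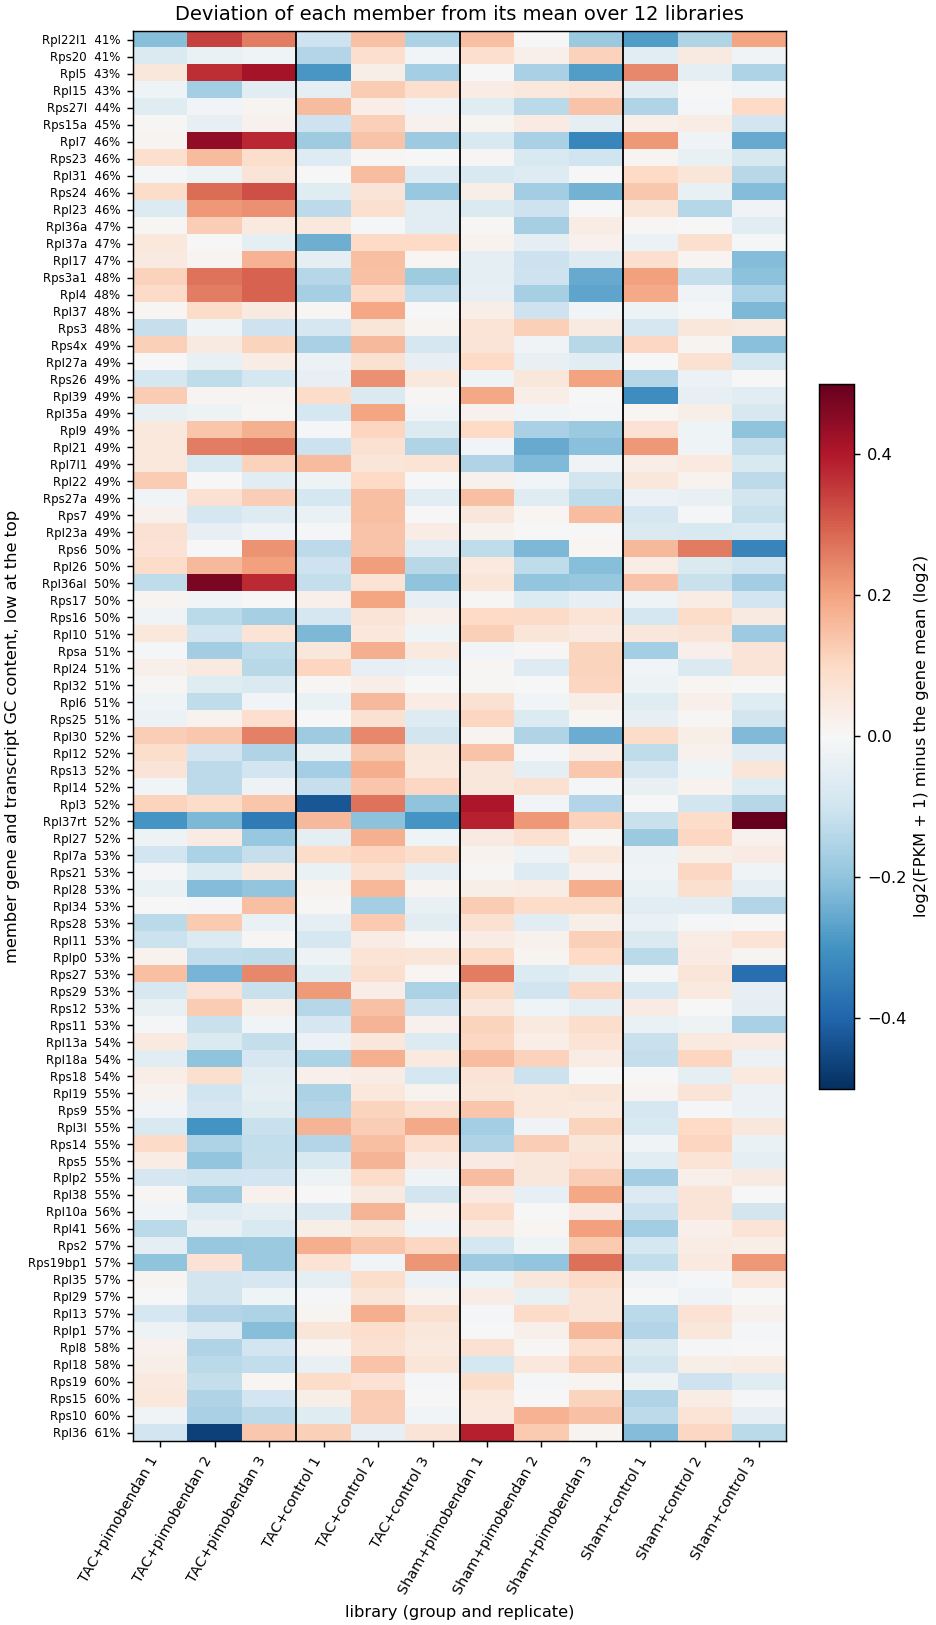
Deviation of 83 of the 84 tested members, each from its own mean over the 12 libraries (log2 of FPKM + 1, blue below and red above), with members ordered by transcript GC content from low at the top to high at the bottom and libraries grouped by condition. TAC+pimobendan replicates 2 and 3 are red mainly in the upper part and blue in the lower part, Sham+pimobendan replicate 3 shows the opposite, and TAC+control replicate 2 is red for most members.

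Pimobendan without pressure overload left every member short of the test. In Sham+pimobendan against Sham+control, 0 of 84 members were called by limma at an adjusted p under 0.05 (background 0%), the smallest adjusted p being 0.910, and 2 members had an unadjusted p under 0.05, both higher (2.38%, background 2.62%) and none lower (background 1.92%, or 4.54% in either direction). These were Rpl34, with 433, 423 and 422 FPKM in Sham+pimobendan against 381, 382 and 358 FPKM in Sham+control (0.19 ± 0.07), and Rpl39. Rpl39, a small protein that lines the peptide tunnel, had 257, 229.9 and 225 FPKM in Sham+pimobendan and 181, 218 and 216 FPKM in Sham+control (0.21 ± 0.09). Neither overlapped, and 11 members in all were higher without overlap (13.1%, background 6.16%), among them Rplp2, Rps19 and Rps7, while none was lower (background 4.98%).

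Rpl36 had the most positive fold change (0.26 ± 0.14), with overlapping groups. It had 654, 548 and 505 FPKM in Sham+pimobendan, where replicate 1 was the highest of all 12 libraries, and 430.2, 537 and 455 FPKM in Sham+control. Rpl21 (−0.19 ± 0.10), Rpl7 (−0.17 ± 0.14) and Rpl4 (−0.16 ± 0.10) were the most negative. In all, 57 members were positive and 27 negative, with a median of 0.052 against 0.013 for all genes, and the correlation of the fold change with GC content was 0.423 across the 84 members, opposite in sign to that in the loaded mice. With the GC and length trend removed the split turned to 39 positive and 45 negative, with a median of −0.0083 against 0.0061 for all genes.

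Under the drug, no member passed the test between the loaded and the unloaded ventricle, and fold changes lay on both sides of 0. In TAC+pimobendan against Sham+pimobendan, 0 of 84 members were called by limma at an adjusted p under 0.05 (background 4.89%), and the smallest adjusted p was 0.0552, for Rpl4. At an unadjusted p under 0.05, 11 members were higher (13.1%, background 16.8%) and 13 were lower (15.5%, background 6.09%), where 22.9% of all genes passed in either direction. Rpl4 had 366, 409.6 and 421 FPKM in TAC+pimobendan and 333, 306 and 285 FPKM in Sham+pimobendan. The groups did not overlap (0.37 ± 0.10). Rpl7 had the most positive fold change, 0.47 ± 0.14, and Rpl5 followed with 0.43 ± 0.13, both without overlap. Rpl36 (−0.32 ± 0.14) and Rpl28 (−0.23 ± 0.08) were among the most negative. Rpl28 had 661, 581 and 589 FPKM in TAC+pimobendan, all under the 690.2, 693 and 767 FPKM of Sham+pimobendan.

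Groups failed to overlap upward for 10 members (11.9%, background 18.6%), which besides Rpl4, Rpl5 and Rpl7 were Rpl17, Rpl21, Rpl26, Rpl30, Rps3a1, Rps23 and Rps24, and downward for 22 (26.2%, background 9.35%). The median fold change was −0.065, against −0.0061 over all genes, with 31 members positive and 53 negative. After quantile normalization 44 were positive and the median was 0.015, which was 0.058 above the all-gene median, and with the GC and length trend removed 39 were positive and the median was −0.011, which was 0.018 above it. The correlation of the fold changes with GC content was −0.596 across the 84 members and −0.637 across the tested genes with a GC value. Without TAC+pimobendan replicate 1, 7 members were called (Rpl4, Rpl5, Rpl7, Rpl21, Rps24 and Rpl36al as higher, Rpl28 as lower) when 10.7% of all genes were. With TPM 2 members were called (Rpl4 and Rps24, both higher) when 6.08% of all genes were. After quantile normalization 1 was called (Rps24, higher) when 2.61% of all genes were.

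The difference between the TAC effect with the drug and without it was tested as an interaction. Again 0 of 84 members were called by limma (background 0%), and the smallest adjusted p was 0.111, for Rpl5 (0.58 ± 0.18). At an unadjusted p under 0.05, 6 members were positive (7.14%, background 16.6%) and 15 negative (17.9%, background 3.69%), where 20.3% of all genes passed in either direction. Rpl7 (0.52 ± 0.20) and Rpl4 (0.44 ± 0.15) followed Rpl5, and Rpl36 (−0.45 ± 0.20), Rps26 (−0.32 ± 0.12) and Rpl28 (−0.30 ± 0.11) stood at the other end. Rps26 had 643, 626 and 643 FPKM in TAC+pimobendan, 664, 801 and 709.7 FPKM in TAC+control, 672, 709.8 and 785 FPKM in Sham+pimobendan, and 618, 670.1 and 682 FPKM in Sham+control. Its TAC+pimobendan mice were under both the TAC+control and the Sham+pimobendan mice, and overlapped the Sham+control mice.

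The interaction was negative for 58 of 84 members, with a median of −0.095 against 0.066 over all genes. It was negative for 42 with TPM, for 41 after quantile normalization (median 0.014) and for 70 after median-ratio scaling. On the FPKM scale, pimobendan had fold changes of opposite sign after TAC and after sham in most members: 49 were negative after TAC and positive after sham, 20 the reverse, 8 positive in both and 7 negative in both. Across all genes tested, the correlation of the pimobendan fold change with GC content also turned sign, from −0.503 after TAC to 0.382 after sham. The same count over all genes is not given here, so these counts do not set the members apart. With TPM, 51 members were positive after TAC and 51 after sham. Without TAC+pimobendan replicate 1 the interaction of Rpl5 was called, when 6.78% of all genes were. With the GC and length trend removed the members' median lay −0.0016 from the all-gene median, in place of −0.161. The intervals of the interaction were wider than those of the simple comparisons, with a median half-width of 0.241, and 60 of 84 lay within 0.5 log2 units of 0.

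The paralogs and gene copies included several of the members with the widest spread. Rpl3l, the muscle form of Rpl3, exceeded Rpl3 in every library. It had 226, 194 and 220.5 FPKM in TAC+pimobendan, 269, 259.98 and 272 FPKM in TAC+control, 212, 235 and 258 FPKM in Sham+pimobendan, and 226, 256 and 248 FPKM in Sham+control. TAC+control held the 3 highest values. The single lowest value was in TAC+pimobendan, whose range overlapped that of Sham+pimobendan. The fold change in TAC+pimobendan against TAC+control was −0.32 ± 0.09 (limma adjusted p 0.0536), the most negative of all members. Rpl3 had 157, 154 and 159.8 FPKM in TAC+pimobendan, 108, 175 and 126 FPKM in TAC+control, 192, 144 and 131 FPKM in Sham+pimobendan, and 145, 136 and 131 FPKM in Sham+control. It had the largest within-group scatter of any tested member (residual SD 0.232 log2 units).

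The ratio of Rpl3l to Rpl3 was 1.44, 1.26 and 1.38 in TAC+pimobendan, 2.497, 1.48 and 2.16 in TAC+control, 1.10, 1.64 and 1.97 in Sham+pimobendan, and 1.56, 1.88 and 1.89 in Sham+control. All TAC+pimobendan ratios were under all TAC+control ratios, by a margin that TAC+control replicate 2 brought close to 0. The Rpl3l transcript lies at 54.7% GC and that of Rpl3 at 51.9%. The summed cardiomyocyte markers were lower between the loaded groups, at 51013 to 57316 FPKM in TAC+pimobendan and 58462 to 63009 FPKM in TAC+control, but the 7 markers were split, 3 positive and 4 negative. Actc1, the cardiac actin, averaged 10919 FPKM in TAC+pimobendan and 15659 FPKM in TAC+control, while Pln, the regulator of the calcium pump, averaged 3446 FPKM in TAC+pimobendan and 2427 FPKM in TAC+control. Their part in the difference was not tested.

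Rpl36al, an intronless copy of the X-linked Rpl36a, had 95.5, 145 and 135 FPKM in TAC+pimobendan, against 95.9, 109 and 90.6 FPKM in TAC+control. Replicate 1 lay within the TAC+control range and the other 2 above it (0.32 ± 0.15, limma adjusted p 0.176). Its parent Rpl36a had 199, 216 and 205 FPKM in TAC+pimobendan and 205, 197 and 191 FPKM in TAC+control, so that the copy stood at 0.480 to 0.672 times the parent in TAC+pimobendan and 0.467 to 0.553 times in TAC+control.

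Rpl37rt, a copy related to Rpl37, had 46.2, 48.6 and 44.3 FPKM in TAC+pimobendan, 63.9, 49.3 and 46.2 FPKM in TAC+control, 74.6, 66.4 and 61.8 FPKM in Sham+pimobendan, and 52.6, 60.8 and 82.2 FPKM in Sham+control. The TAC+pimobendan mice were below all Sham+pimobendan mice (−0.53 ± 0.15, limma adjusted p 0.0599), the most negative member there. Rpl37 itself had 213, 226 and 218 FPKM in TAC+pimobendan and 216, 197 and 209.6 FPKM in Sham+pimobendan, overlapping ranges. Reads of a copy and its parent cannot always be told apart, so both pairs are uncertain.

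The other paralogs stayed below their relatives in every library. Rps27l, a p53-responsive relative of Rps27, stood at 0.0762 to 0.132 times Rps27 over the 12 libraries, Rpl22l1 at 0.292 to 0.474 times Rpl22, and Rpl7l1 at 0.0493 to 0.0899 times Rpl7. Rpl22l1 had 23.8, 35.5 and 33.4 FPKM in TAC+pimobendan and 25.8, 30.8 and 24.8 FPKM in TAC+control, overlapping ranges (0.17 ± 0.16). Its transcript is the GC-poorest of the tested members at 40.6%.

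The stalk genes had fold changes of like size among themselves. Rplp0, often used as a reference gene, had 846, 766 and 766 FPKM in TAC+pimobendan, 821, 876 and 871 FPKM in TAC+control, 892, 844 and 895 FPKM in Sham+pimobendan, and 762, 860.5 and 845 FPKM in Sham+control. Its highest library was 1.17 times its lowest. Its fold change in TAC+pimobendan against TAC+control was −0.11 ± 0.07, that of Rplp1 −0.17 ± 0.07 and that of Rplp2 −0.11 ± 0.07, and in Sham+pimobendan against Sham+control they were 0.09 ± 0.07, 0.09 ± 0.07 and 0.15 ± 0.07. Rps6 had 12.8, 12.1 and 14.3 FPKM in TAC+pimobendan and 10.95, 13.5 and 11.6 FPKM in TAC+control, which overlap (0.11 ± 0.14). Among the ribosomal components that the symbol rule leaves out, Fau lay at 317 to 388 FPKM and Rack1 at 300.02 to 378 FPKM, and neither was called in any comparison.

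The pyrimidine run at the annotated first base was set against the members' fold changes. An annotated start can lie a few bases from the start in use, so members counted without the run, such as Rps24, may carry the motif. The split therefore cannot decide whether the motif separates members by their fold change. In TAC+pimobendan against TAC+control the 13 tested members with the run at an annotated first base had a median of −0.051, with 3 positive, and the 51 with a matched start and no such run had −0.034, with 19 positive. Their median GC contents were 52.6% and 50.6%. Among 18 other tested genes known for a TOP motif, such as Eef2 and Tpt1, none was called in any comparison, and their median in TAC+pimobendan against TAC+control was 0.011. With the replicate number as a block in the TAC groups, 1 of them was called in that comparison, when 6.08% of all genes were.

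Other parts of the translation machinery were set beside the members. The 78 mitochondrial ribosomal proteins, which build the ribosome inside mitochondria, lay on the same sides: their median was −0.125 in TAC+pimobendan against TAC+control, with 68 negative, and 0.072 in TAC+control against Sham+control, with 65 positive. None was called in either comparison, and 2 (2.56%, background 4.89%) rose in TAC+pimobendan against Sham+pimobendan, Mrpl50 (0.52 ± 0.12, limma adjusted p 0.0360) and Mrpl42 (0.52 ± 0.13, limma adjusted p 0.0400). The 9 elongation factors had medians of −0.105 and 0.047 in the first 2 comparisons, and none was called in any of the 5. Eef1a2, the muscle form of the factor that brings the aminoacyl-tRNA, had −0.24 ± 0.08 in TAC+pimobendan against TAC+control (limma adjusted p 0.0756).

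Of 34 initiation factors, 1 (2.94%, background 3.27%) rose in TAC+pimobendan against TAC+control: Eif5b, which joins the subunits, had 10.1, 14.5 and 13.5 FPKM in TAC+pimobendan and 7.25, 9.14 and 6.42 FPKM in TAC+control (0.67 ± 0.14, limma adjusted p 0.0409). Against Sham+pimobendan, 6 rose in TAC+pimobendan (17.6%, background 4.89%): Eif5b, Eif3a, Eif2s1, Eif5, Eif2s2 and Eif3j1, by 0.39 to 0.82. Among 40 ribosome biogenesis factors 2 (5%, background 4.89%) rose there, Dkc1 (0.72 ± 0.17) of the pseudouridylation complex and the nucleolar protein Ncl (0.83 ± 0.21), and none was called in the other 4 comparisons. Of 22 genes of mTOR signalling and growth control, Larp4 rose there (0.78 ± 0.16; 1 gene is 4.55%, background 4.89%), and none of 12 genes of RNA polymerase I was called in any comparison. No gene of the table was called in TAC+pimobendan against Sham+pimobendan without replicate 2 or 3 of either group. The call of Eif5b against TAC+control was lost without TAC+pimobendan replicate 2 or 3 or TAC+control replicate 1 or 3. Without TAC+pimobendan replicate 1, 5 initiation factors were called against TAC+control, when 10.4% of all genes were. With the replicate number as a block in all groups the adjusted p of Eif5b was 0.0788, and with the block in the TAC groups only it was 0.0187. That last fit called 2 initiation factors and 2 biogenesis factors against TAC+control, when 6.08% of all genes were called. With the GC and length trend removed, no gene of these lists was called in TAC+pimobendan against Sham+pimobendan, nor any initiation factor against TAC+control.

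**Figure D5:**
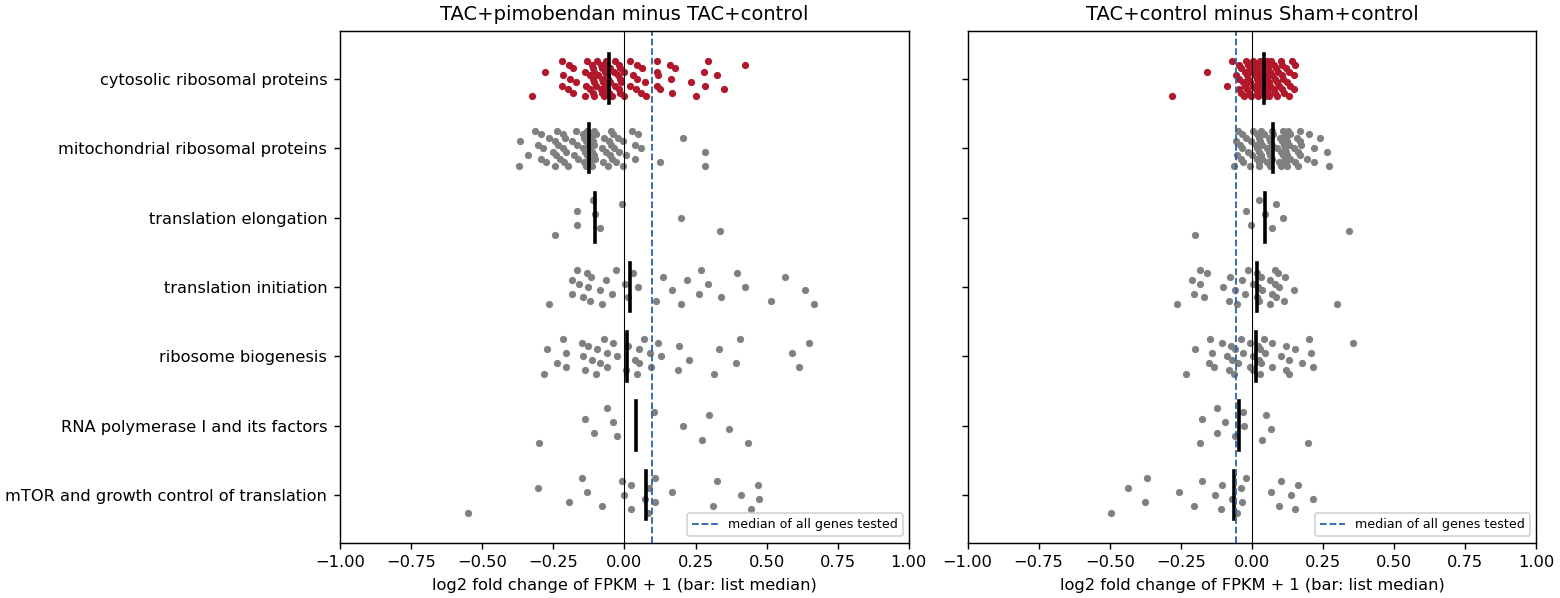
Log2 fold change of FPKM + 1 of each tested gene (points, spread vertically for legibility) in 7 groups of translation genes, with the median of each group as a bar and the median of all genes tested as a dashed line, in TAC+pimobendan minus TAC+control (left) and TAC+control minus Sham+control (right). Cytosolic (red) and mitochondrial ribosomal proteins lie mostly below the dashed line on the left, with medians of −0.053 and −0.125, and above it on the right, with 0.043 and 0.072.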

How the data were processed

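Poly(A) RNA of 12 left ventricles was sequenced, per the labels. The authors deposited FPKM and TPM per gene in 1 table, and the FPKM column of each mouse was used, with TPM as an alternative. GRCm38, RSEM 1.2.12, HISAT2 2.0.4, DESeq2 1.4.5 and Bowtie2 2.2.5 appear, without their roles, in the submitters' processing notes. Which tool made the values, and whether strand was used, is not given in the sources used here. Values of log2(FPKM + 1) were fitted for all 12 libraries with 1 mean per group in limma 3.58.1 (trend; R 4.3.3), with Benjamini-Hochberg adjustment over the 11415 genes that reached 1 FPKM in 3 or more libraries. A call is an adjusted p under 0.05. All fold changes use this scale, which understates those of low genes. Deviations from the group mean of same-numbered TAC+pimobendan and TAC+control libraries correlated at 0.154, 0.208 and 0.101. Those of differently numbered libraries of these 2 groups correlated at −0.172 to 0.028. Deviations from a group's mean cancel over its libraries, so these sets of values constrain one another and are not separate evidence. In no other pair of groups were all 3 same-numbered correlations over 0.1. Between other groups some differently numbered libraries correlated more strongly, such as Sham+control replicate 2 with Sham+pimobendan replicate 1 at 0.434. The labels state no pairing, and none was established. The script was tested on simulated data. GC content and length are means over GENCODE M21 transcripts (GRCm38) matched to the table's RefSeq accessions, for all 84 tested members and 11342 genes. RefSeq start windows are GRCm38.p6. Members named were a fixed panel, the 5 most and 5 least abundant tested, and the 3 most positive and 3 most negative in each comparison; Rpl7a, Rpl28, Rps24, Rpl8, Rpl29, Rpl32, Rps23, Rps3a1 and others given as examples of a count were named after their values were seen. The members and lists were chosen with earlier results of these data known. Results on some genes are not reported here. No outlier test applies to groups of 3. Alternatives tried were TPM, median-ratio scaling, quantile normalization, a pseudocount of 0.1, no filter or a filter on the mean, the replicate number as a block, that block in the TAC groups only (chosen after seeing the data), only the groups compared, removal of each library's GC and length trend, and leaving out each mouse.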

Additional observations from a re-analysis of the deposited data

How the results depend on the processing

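No member was called in 79 of the 86 alternative fits over the 5 comparisons. The exceptions in TAC+pimobendan against TAC+control were 2 members with TPM, 1 with the replicate block in the TAC groups only and 6 without TAC+pimobendan replicate 1. The range was 0 to 6 over the fits leaving out 1 mouse. The shares of all genes called in these fits were 9.69%, 6.08% and 10.4%. In TAC+pimobendan against Sham+pimobendan the exceptions were 2 with TPM, 1 after quantile normalization and 7 without TAC+pimobendan replicate 1, a range of 0 to 7. The shares of all genes were then 6.08%, 2.61% and 10.7%. The interaction gave 0 to 1, the 1 without TAC+pimobendan replicate 1, when 6.78% of all genes were called. TAC+control against Sham+control and Sham+pimobendan against Sham+control gave 0 to 0. The cause was not tested. Of the named members' fold changes, 1 changed sign: Rpl21 in TAC+control against Sham+control, to 0.0080 without Sham+control replicate 1, in a range of −0.160 to 0.0080 over the fits leaving out 1 mouse. Calls over all genes were less stable. In TAC+pimobendan against TAC+control the share called was 3.27% as reported, lay between 0% and 10.4%, and was 0% in 8 of 17 alternatives, among them without TAC+control replicate 3 and without TAC+pimobendan replicate 2. In TAC+pimobendan against Sham+pimobendan it lay between 0% and 10.7%, and was 0% in 9 of 16. The distance of the members' median from the all-gene median in TAC+pimobendan against TAC+control lay between −0.167 and 0.054 over the 11 alternatives that keep all mice, positive only after quantile normalization, and between −0.171 and −0.094 when a mouse was left out.

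Over all groups, deviations of same-numbered libraries correlated at −0.440 to 0.253, with 4 of 18 pairs over 0.1, 3 of them between the TAC groups. With the replicate block in all groups 0 members were called in each of the 5 comparisons, and 0 genes of the table in TAC+pimobendan against Sham+pimobendan. With no read counts in use, how far depth limits the calls is unknown, and 3 mice a group limit the precision to a median interval half-width of 0.170 log2 units for a member.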

Other observations

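The 2 listed pseudogenes left out by the symbol rule had values too. Rpl31-ps12 averaged 11.8 FPKM over the 12 libraries (lowest 6.60, highest 19.98) and Rpl34-ps1 averaged 8.24 FPKM (lowest 3.68, highest 14.9). Both means were below the 12.2 FPKM of Rps6. How their reads were told apart from those of Rpl31 and Rpl34 is not given in the sources used here.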
